A study of Mus musculus with 6 samples.

Results

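The genes described here encode the proteasome, and were taken as every row of the deposited table whose symbol is Psm, a letter from a to g and a number. The rule found 47 of the 14912 genes in the table: 18 subunits of the core particle, 17 of the regulatory particle, 7 assembly chaperones, 4 activators and 1 inhibitor. Psmc3ip and Psme2b also carry the prefix and were not matched by the rule. Psmb11, the thymoproteasome gene, was not analysed here. The study cultured wild-type C57BL/6J bone marrow with 50 ng/ml of FLT3 ligand, a cytokine under which such cells become dendritic cells, and renewed it on day 7. In the 3 midkine samples the human recombinant protein midkine, a secreted cytokine that binds heparin, was present at 10 ng/ml over the last 2 days. The 3 control samples had FLT3 ligand and no midkine. The labels leave unsaid whether the replicates of a group are different mice, different cultures or repeat libraries of 1 culture; p-values therefore measure only the spread between these libraries, and that spread could be technical.

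The proteasome degrades proteins tagged with ubiquitin. Its barrel-shaped core particle has outer rings of alpha subunits, which gate the entrance, and inner rings of beta subunits, which hold the proteolytic sites. The regulatory particle binds the tagged protein, removes the ubiquitin, unfolds the chain and feeds it into the core. In cells exposed to interferon-gamma, and constitutively in dendritic cells, the catalytic subunits Psmb5, Psmb6 and Psmb7 are partly replaced by Psmb8, Psmb9 and Psmb10, which gives the immunoproteasome. This form is known for making peptides that fit MHC class I molecules. The activator PA28, encoded by Psme1 and Psme2, is induced by the same cytokine.

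The bases before the start of catalytic subunit genes are shown, together with those of Psmd6 and Psmd8, the members with the deepest fall and the largest rise. The 250 bases before the RefSeq start on GRCm38.p6 are given, 5′ to 3′ on the strand of the gene; Psmb7 is named only. Their positions are chr17:34197945-34198194 on the + strand for Psmb8, chr17:34187331-34187580 on the - strand for Psmb9, chr8:105938393-105938642 on the - strand for Psmb10, chr14:54617996-54618245 on the - strand for Psmb5, chr11:70525107-70525356 on the + strand for Psmb6, chr14:14120946-14121195 on the - strand for Psmd6 and chr7:29180674-29180923 on the - strand for Psmd8. By the GENCODE positions, the windows of Psmb8 and Psmb9 lie wholly inside the annotated genes, which start further upstream than the RefSeq entries. Those of Psmb10, Psmb5, Psmd6 and Psmd8 overlap the annotated gene in part. Capitals mark matches to any of 4 motifs on either strand.
Psmb8: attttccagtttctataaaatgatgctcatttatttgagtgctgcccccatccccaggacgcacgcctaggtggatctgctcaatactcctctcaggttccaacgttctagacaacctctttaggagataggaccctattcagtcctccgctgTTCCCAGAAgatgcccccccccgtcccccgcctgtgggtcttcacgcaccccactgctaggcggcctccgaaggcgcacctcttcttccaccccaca
Psmb9: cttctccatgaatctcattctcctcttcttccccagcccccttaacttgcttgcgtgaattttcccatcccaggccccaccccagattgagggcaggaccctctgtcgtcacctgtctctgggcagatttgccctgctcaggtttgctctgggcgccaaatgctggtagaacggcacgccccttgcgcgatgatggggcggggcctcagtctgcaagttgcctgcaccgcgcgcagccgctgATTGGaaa
Psmb10: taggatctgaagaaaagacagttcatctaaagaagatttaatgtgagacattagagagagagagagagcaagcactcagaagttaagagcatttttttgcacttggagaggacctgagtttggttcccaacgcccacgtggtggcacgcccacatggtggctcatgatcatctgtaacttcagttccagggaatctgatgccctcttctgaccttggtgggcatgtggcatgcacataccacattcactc
Psmb5: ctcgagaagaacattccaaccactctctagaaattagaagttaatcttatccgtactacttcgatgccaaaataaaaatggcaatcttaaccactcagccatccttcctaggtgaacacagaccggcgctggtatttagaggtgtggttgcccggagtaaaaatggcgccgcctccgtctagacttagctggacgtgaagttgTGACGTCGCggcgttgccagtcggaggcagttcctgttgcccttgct
Psmb6: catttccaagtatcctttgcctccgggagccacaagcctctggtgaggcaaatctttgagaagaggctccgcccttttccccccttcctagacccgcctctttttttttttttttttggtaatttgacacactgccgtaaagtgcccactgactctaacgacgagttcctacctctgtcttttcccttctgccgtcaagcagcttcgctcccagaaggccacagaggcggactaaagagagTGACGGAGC
Psmd6: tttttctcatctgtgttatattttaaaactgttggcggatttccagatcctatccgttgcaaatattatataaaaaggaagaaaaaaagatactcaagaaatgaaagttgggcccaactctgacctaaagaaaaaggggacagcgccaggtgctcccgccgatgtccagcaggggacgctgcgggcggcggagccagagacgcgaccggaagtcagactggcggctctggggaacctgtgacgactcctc
Psmd8: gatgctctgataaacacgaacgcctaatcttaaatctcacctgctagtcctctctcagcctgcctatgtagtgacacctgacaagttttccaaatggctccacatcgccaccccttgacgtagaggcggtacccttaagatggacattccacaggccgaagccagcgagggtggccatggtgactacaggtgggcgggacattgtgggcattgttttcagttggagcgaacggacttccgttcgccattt

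The motifs were the core of the interferon-stimulated response element (TTTC, any 2 bases, TTTC), TTCNNNGAA, the gamma-activated site, TGACNNNGC, the core of the antioxidant response element to which NRF1 and NRF2 bind, and CCAAT. Of the 47 members 39 matched an entry, with 42 promoters. The palindromic gamma-activated letters lay 97 bases before the RefSeq start of Psmb8, inside the gene as GENCODE places it. They also lay before Psmg1, and were found in 7.02% of all 32851 promoters. The antioxidant letters lay 47 bases before the start of Psmb5 and 9 bases before that of Psmb6, and 5 members held them (Psmb5, Psmb6, Psmc6, Psmd9 and Psmd12), against 10.2% of all promoters. The interferon element letters occurred before Psmb3, Psmd4 and Psmd9, against 2.98% of all promoters. CCAAT occurred before 13 members, Psmb9 among them, against 33.8% of all promoters. None of these motifs was in the windows of Psmb10, Psmd6 and Psmd8. A match is a run of letters and not a shown binding site.

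The libraries held 5685055 to 6453768 reads with midkine and 5089338 to 5532055 in controls. Mitochondrial ribosomal RNA took 18.1% to 20.9% of the reads with midkine and 9.33% to 9.86% in controls. Markers of dendritic cells were present in every library: the 6 general ones (Flt3, Itgax, Zbtb46, H2-Aa, H2-Ab1, Cd74) summed to 50810 to 54107 normalised read counts with midkine and 44349 to 47659 in controls. Most of that sum came from the MHC class II genes H2-Aa and H2-Ab1 and the invariant chain gene Cd74, and 2 of the 6 were higher (Itgax and H2-Ab1) and 1 lower (Zbtb46). Scaled to total counts H2-Ab1 was not called. All 10 plasmacytoid markers were called lower, at a summed level of 1754 to 1907 with midkine and 6653 to 6946 in controls. Of 9 type 1 dendritic cell markers 8 were lower and 1 higher (13138 to 14956 with midkine, 24489 to 28821 in controls), and of 7 type 2 markers 5 were higher (3758 to 4378 with midkine, 2874 to 3134 in controls). Of 9 stromal markers 7 were higher and 1 lower, at 35438 to 39748 with midkine and 11654 to 13781 in controls. Of 8 macrophage markers 2 were higher and 3 lower (2391 to 2573 with midkine, 2493 to 3548 in controls). Of 3 tested neutrophil markers 2 were lower, S100a8 and S100a9 (6 markers summed to 34.8 to 60.8 with midkine and 460 to 578 in controls). Elane and Ly6g were at 0 in all midkine libraries and near 0 in controls, at most 3.73 for Elane and 0.933 for Ly6g. Of 4 tested B lineage markers 2 were lower (6 markers summed to 110 to 144 with midkine and 134 to 258 in controls, with Vpreb1 at 0 in all midkine libraries). Nkg7, the marker of T and NK cells in the table, was at 0 to 2.75 normalised read counts with midkine and 3.13 to 4.72 in controls, and the 4 haemoglobin genes summed to 1.13 to 8.25 with midkine and 0.945 to 3.13 in controls. All these marker lists stand beside every proteasome value below, and their part in those values was not tested. In bulk RNA fewer cells of a type and less RNA per cell cannot be told apart.

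Proteasome genes changed little, and mostly downward. Of 46 members tested, 15 were lower and 3 higher with midkine, and 28 were not called (limma, adjusted p under 0.05 over all 11844 genes tested). That is 32.6% lower and 6.52% higher among the members, where 21.8% of all genes tested were lower and 20.9% higher, so that the members called either way (39.1%) were near the share of all genes (42.7%). The median log2 fold change was -0.18 over the members and -0.01 over all genes. The median size of the change, sign left aside, was 0.21 for the members and 0.31 for all genes. None of the members changed 2-fold, as 10.1% of all genes did: they ran from -0.60 (Psmd6) to 0.41 (Psmd8), and the middle of the distribution, from the lower to the upper quartile, lay between -0.27 and -0.0003, against -0.31 and 0.31 for all genes. Groups did not overlap for 21 members (45.7%), where 51.3% of all genes did not overlap. Of these, 16 were lower and 5 higher with midkine, against 26.2% of all genes lower and 25.1% higher. edgeR's quasi-likelihood test also called 15 members lower and 3 higher, against 21.7% of all genes lower, 21.8% higher and 43.5% either way. DESeq2 called 11 members lower and 3 higher, without Psma2, Psmb3, Psmd9 and Psmd13, against 17.1% of all genes lower, 17.5% higher and 34.5% either way. Psma8, an alpha subunit of the testis, was below the minimum mean of 10 and was not tested, at 8, 12 and 6 reads with midkine and 4, 8 and 4 reads in controls.

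Scaled to total counts, in place of the deposited size factors, 31 members (67.4%) were lower and 0 higher. The 15 lower genes were joined by 16 that were not called under the deposited scaling: Psma3, Psma6, Psma7, Psmb2, Psmb6, Psmb7, Psmb8, Psmc1, Psmc4, Psmd3, Psmd4, Psmd12, Psmd14, Psme2, Psmg3 and Psmg4. The median of all genes then lay at -0.26 and that of the members at -0.44, and 40.7% of all genes were lower, 10.8% higher and 51.5% called either way. With ribosomal RNA rows left out of the totals, 21 members were lower and 1 higher, against 26.8% of all genes lower, 17.1% higher and 43.9% either way. The summed level of the 47 members, in normalised read counts, was 24922, 23797 and 24154 in midkine libraries and 26471, 26668 and 26684 in control libraries. All 3 midkine sums lay below all 3 control sums. The members took 0.389% to 0.402% of the reads with midkine and 0.503% to 0.540% in controls, or 0.541% to 0.560% with midkine and 0.631% to 0.641% in controls when ribosomal RNA rows were left out.

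**Figure D1:**
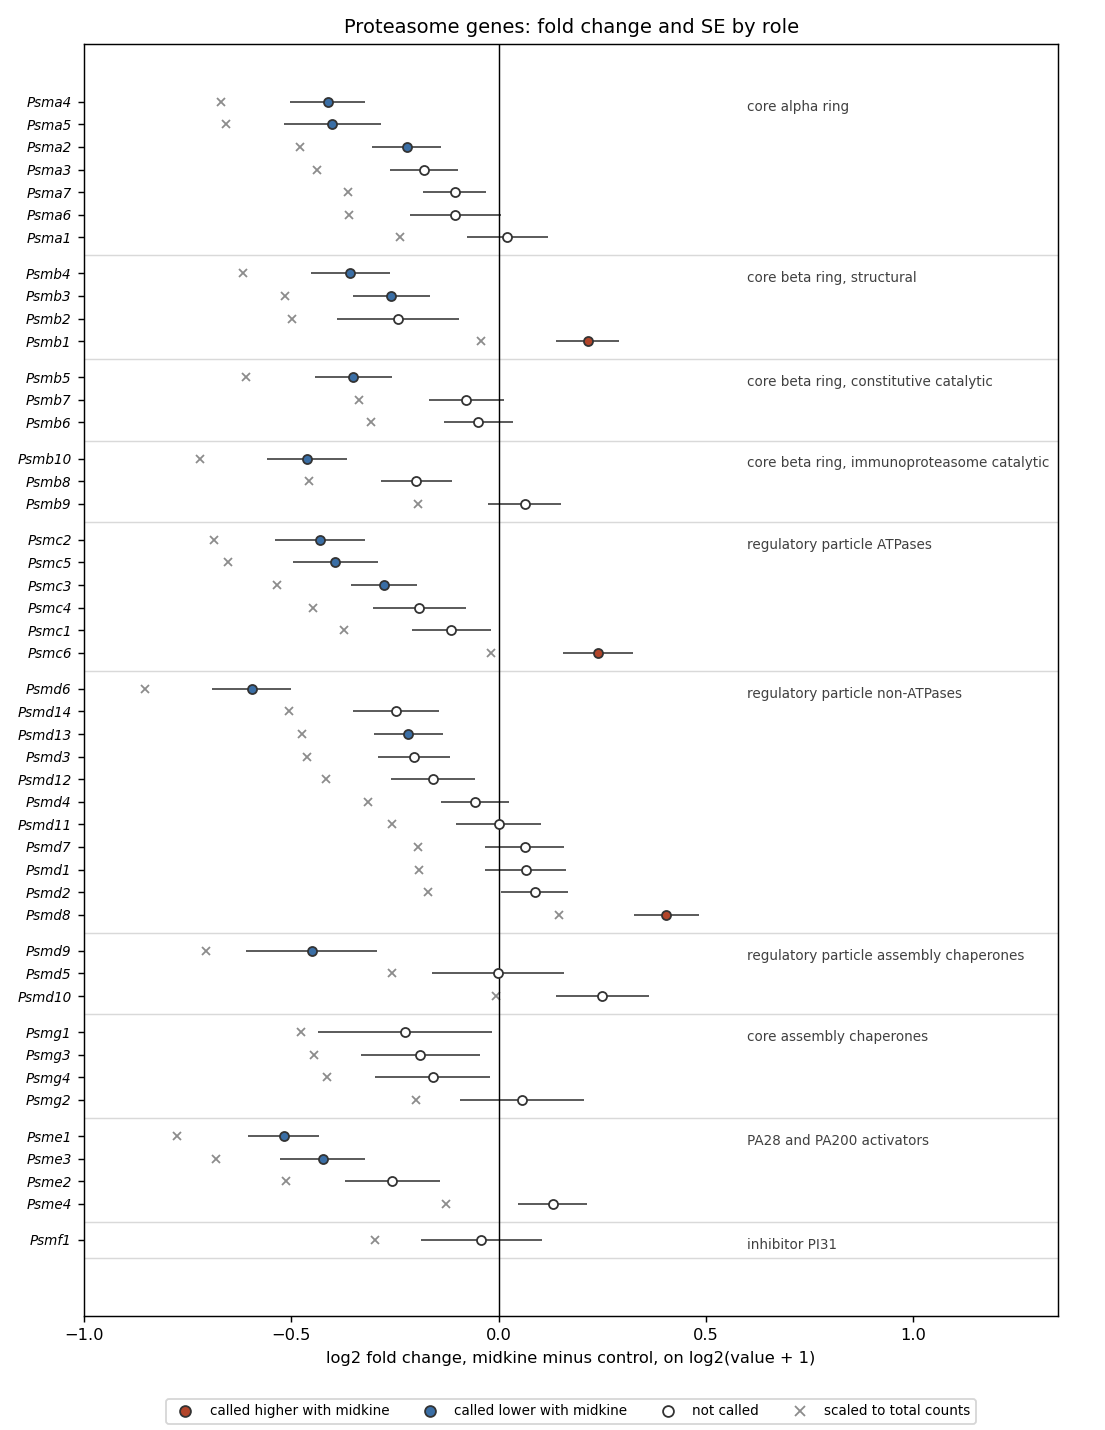
Log2 fold change of the 46 tested proteasome genes, midkine minus control, with its SE from limma (3 libraries a group), ordered within each role. Filled points passed an adjusted p of 0.05 (red higher, blue lower), and crosses give the value scaled to total counts: the 15 lower genes stayed lower, whereas Psmb1 and Psmc6 crossed to the other side of 0 and Psmd8 stayed above it.

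The catalytic subunits of the immunoproteasome did not move together. Psmb10 fell, while Psmb8 and Psmb9 did not pass the test under the deposited scaling, where 21.8% of all genes tested fell. Psmb10, the subunit that takes the place of Psmb7 (chromosome 8 from 105935735 to 105938444 of GRCm38), measured 326, 280.4 and 344 normalised read counts in midkine libraries, against 421, 448 and 437 in control libraries. Every midkine value lay below every control value, a 1.38-fold fall (log2 fold change -0.46, SE 0.10, limma adjusted p = 0.000384) that was called in all 18 other fits. Psmb8, the subunit with chymotrypsin-like activity that replaces Psmb5, measured 1119, 904 and 978 with midkine and 1192, 1163 and 1077 in controls. Midkine replicate 1 overlapped the controls, and the log2 fold change of -0.20 (SE 0.09, limma adjusted p = 0.0627) did not pass; without that replicate it was -0.28 and called. Scaled to total counts Psmb8 was at -0.46 and called lower, and at -0.28 and called with ribosomal RNA left out of the totals. Psmb9, which replaces Psmb6, lies near Psmb8 in the MHC region of chromosome 17, from 34181987 to 34187764. It measured 759, 632 and 748 with midkine and 734, 646 and 665 in controls. The groups overlapped, and the log2 fold change was 0.06 (SE 0.09, limma adjusted p = 0.605), or -0.20 scaled to total counts, not called in either. Exons of Psmb9 overlap those of its divergent neighbour Tap1 on the other strand, and the strand setting of the counting is not given in the sources used here.

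Among the constitutive catalytic subunits Psmb5 fell, while Psmb6 and Psmb7 did not pass the test, where 21.8% of all genes tested fell. Scaled to total counts all 3 were called lower, where 40.7% of all genes were lower. Psmb5, which carries the chymotrypsin-like site, measured 452, 373 and 437 normalised read counts with midkine, against 521, 556 and 527 in controls. The groups did not overlap (log2 fold change -0.35, SE 0.09, limma adjusted p = 0.00333), and all 18 other fits called it lower. Psmb6, the caspase-like subunit, measured 623, 642 and 663 with midkine and 655, 713 and 629 in controls. Psmb7, the trypsin-like subunit, measured 416, 408 and 428 with midkine and 461, 406 and 456 in controls. Both overlapped between groups and were not called at -0.05 (SE 0.08) and -0.08 (SE 0.09) on the log2 scale. Scaled to total counts Psmb6 was at -0.31 and Psmb7 at -0.34, both called lower, where the median of all genes was -0.26. Of the 18 other fits only this 1 called them. With ribosomal RNA left out of the totals Psmb6 was at -0.13 and Psmb7 at -0.16, neither called. Psmb5 has the copies Psmb5-ps and Gm3375, and Psmb7 has exons that overlap Nek6 on the other strand.

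**Figure D2:**
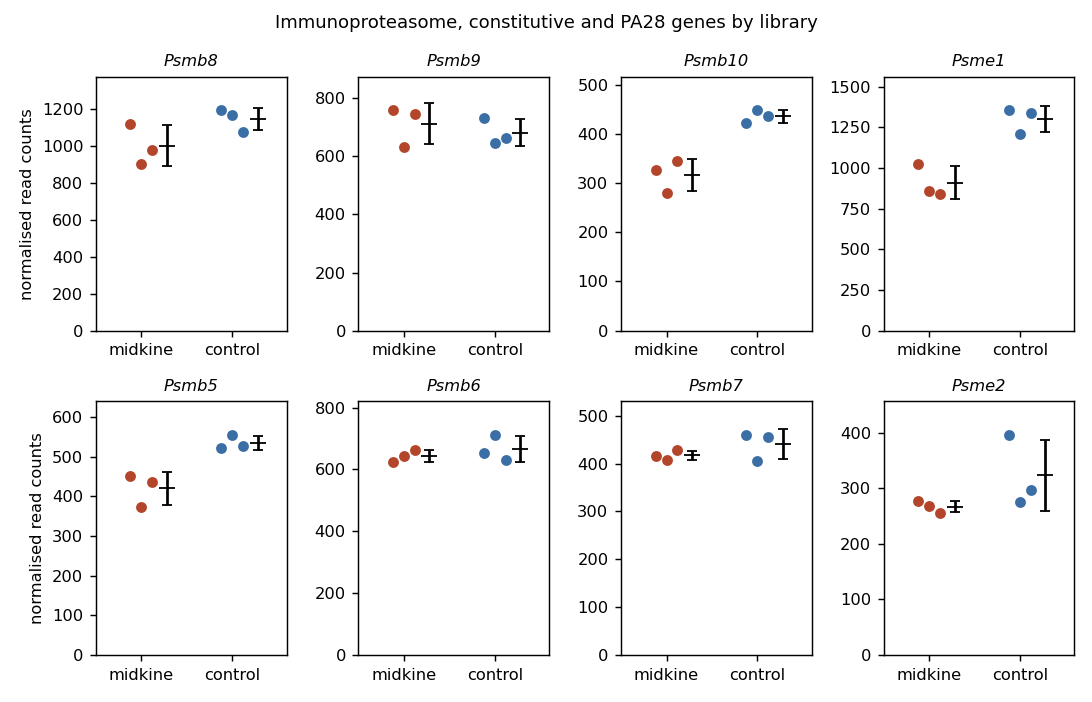
Normalised read counts per library of the immunoproteasome catalytic genes and Psme1 (top) and of the constitutive catalytic genes and Psme2 (bottom), midkine left of control, each point a library and the bar the mean with SD (n = 3). Psmb10, Psme1 and Psmb5 are separated between groups, and the other 5 genes overlap.

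The ratio of immunoproteasome to constitutive subunits within a library does not depend on the scaling between libraries. For Psmb8, Psmb9 and Psmb10 against Psmb5, Psmb6 and Psmb7, the difference of the mean log2 values was 0.41, 0.24 and 0.34 in midkine libraries and 0.41, 0.35 and 0.35 in control libraries. The midkine mean of 0.33 ± 0.09 and the control mean of 0.37 ± 0.03 (SD, n = 3 each) differed by -0.04, less than the spread between midkine libraries. Without midkine replicate 2 the difference was 0.0063. In reads, the immunoproteasome genes made up 59.7% (58.0% to 61.3%, Wilson 95% interval), 56.1% (54.4% to 57.7%) and 57.5% (55.9% to 59.1%) of the 6 catalytic genes with midkine. In controls they made up 58.9% (57.4% to 60.4%), 57.4% (55.9% to 58.9%) and 57.4% (55.8% to 59.0%).

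The 3 pairs ran in different directions behind that average. Psmb8 minus Psmb5 was 1.25 ± 0.08 with midkine and 1.09 ± 0.09 in controls on the log2 scale, a difference of 0.15 with overlapping groups. Psmb9 minus Psmb6 was 0.15 ± 0.16 with midkine and 0.03 ± 0.16 in controls, a difference of 0.11 within the spread of either group. Psmb10 minus Psmb7 was -0.35, -0.54 and -0.31 with midkine and -0.13, 0.14 and -0.06 in controls. That pair was separated between groups, by -0.38. Leaving the pair of Psmb10 and Psmb7 out turned the average difference to 0.13, and leaving out the pairs of Psmb8 or Psmb9 gave -0.14 and -0.12. These ratios were described without a test.

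**Figure D3:**
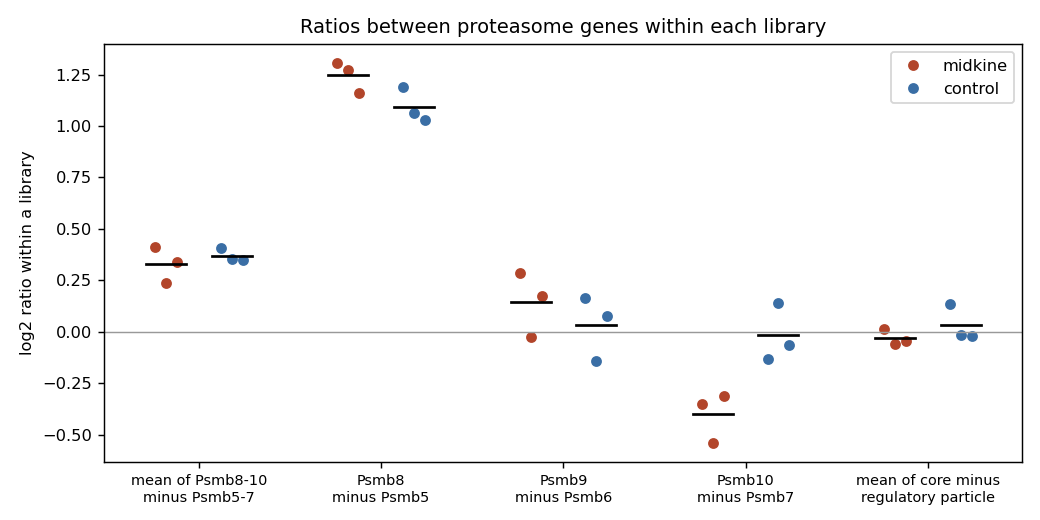
Log2 ratios between proteasome genes within each library, midkine left of control, with a line at the mean of 3 libraries. The pair of Psmb10 and Psmb7 lies between -0.54 and -0.31 with midkine and between -0.13 and 0.14 in controls; the other 4 ratios plotted overlap between groups.

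Of the 4 activator genes Psme1 and Psme3 fell, where 21.8% of all genes tested fell and 20.9% rose. Psme2 and Psme4 were not called. Psme1, the alpha subunit of PA28 (chromosome 14 from 55578123 to 55581529), measured 1025, 861 and 841 normalised read counts with midkine and 1355, 1206 and 1336 in controls. It fell 1.43-fold without overlap (log2 fold change -0.52, SE 0.09, limma adjusted p = 2.3e-05), also in all 18 other fits. Psme2, the beta subunit that joins Psme1 in the same ring, lies next to it from 55587441 to 55591113. It measured 277, 268 and 256 with midkine and 397, 275 and 297 in controls. The groups overlapped through control replicate 2, and the log2 fold change of -0.26 (SE 0.12, limma adjusted p = 0.0763) did not pass; without that library it was -0.36 and called, as it was at -0.51 scaled to total counts. Psme3, which encodes the nuclear PA28 gamma, measured 240.0, 226 and 217 with midkine and 335, 293 and 291 in controls, with no overlap (log2 fold change -0.42, limma adjusted p = 0.0016). Psme4, which encodes the activator PA200, was at 743 ± 49.0 with midkine and 678 ± 32.5 in controls (mean ± SD, n = 3 each), a log2 fold change of 0.13 that was not called and was -0.13 scaled to total counts. Psme1 minus Psme2 was 1.76 ± 0.11 with midkine and 2.02 ± 0.22 in controls on the log2 scale, with overlapping groups. Psme1 has the copy Gm7776 and exons overlapping Emc9 on the other strand, and Psme2 shares its end with Psme2b. The inhibitor PI31, encoded by Psmf1, was at 101 ± 9.52 with midkine and 104 ± 14.1 in controls and was not called.

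In the alpha ring 3 of 7 subunits fell and none rose, where 21.8% of all genes tested fell and 20.9% rose. Psma4 measured 669, 655 and 533 normalised read counts with midkine, against 849, 819 and 792 in controls. Psma5 measured 170.1, 140.2 and 146 with midkine, against 218, 194 and 191 in controls. Both were separated between groups and were called lower in all 18 other fits, at -0.41 (SE 0.09, limma adjusted p = 0.00062) and -0.40 (SE 0.12, limma adjusted p = 0.00783). Psma2 measured 758, 750 and 806 with midkine and 998, 861 and 846 in controls, also without overlap (log2 fold change -0.22, limma adjusted p = 0.0355). Its call was lost without control replicate 1 (-0.15), midkine replicate 1 (-0.21) or midkine replicate 2 (-0.20). The other 4 subunits had log2 fold changes of -0.18 (Psma3), -0.11 (Psma7), -0.10 (Psma6) and 0.02 (Psma1), the last at -0.24 and not called scaled to total counts. Psma4 and Psma5 have the near-identical copies Gm6542 and Gm8394.

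The structural beta subunits went both ways, with 2 of 4 lower and 1 higher, where 21.8% of all genes tested fell and 20.9% rose. Psmb4, an inner-ring subunit with no proteolytic site, measured 756, 937 and 720.3 normalised read counts with midkine and 1109, 925 and 1047 in controls. It was called lower although midkine replicate 2 lay above control replicate 2 (log2 fold change -0.36, SE 0.09, limma adjusted p = 0.00351). Psmb3, also without a proteolytic site, measured 393, 400 and 375 with midkine and 503, 422 and 476 in controls (-0.26, limma adjusted p = 0.0267), with no overlap. Its call was lost without midkine replicate 3 (-0.23), control replicate 1 (-0.20) or control replicate 3 (-0.24). Psmb1, a further subunit of this kind, ran against them. It measured 1122, 1165 and 1103 with midkine and 938, 996 and 986 in controls, which is higher without overlap (log2 fold change 0.22, limma adjusted p = 0.0257), or -0.04 and not called scaled to total counts. The call of Psmb1 was lost without midkine replicate 2 (0.19), midkine replicate 3 (0.23), control replicate 1 (0.19) or control replicate 3 (0.22). Psmb2 was at 91.9 ± 8.17 with midkine and 110 ± 17.5 in controls (log2 fold change -0.24) and was not called.

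The regulatory particle held both the deepest fall and the largest rise. Psmd6, a non-ATPase subunit of its lid (chromosome 14 from 14112174 to 14120984), measured 352, 299 and 365 normalised read counts with midkine and 487, 507 and 538 in controls. It fell 1.51-fold with a wide gap between the groups (log2 fold change -0.60, SE 0.10, limma adjusted p = 1.6e-05), and all 18 other fits called it. Psmd8, another lid subunit (chromosome 7 from 29174188 to 29180701), measured 1084, 1124 and 1160.2 with midkine, against 869.9, 863 and 809.8 in controls. It rose 1.32-fold without overlap (log2 fold change 0.41, SE 0.08, limma adjusted p = 0.000146), and 17 of the 18 other fits called it. Scaled to total counts Psmd8 was at 0.15 and not called, where the median of all genes was -0.26. Within a library Psmd8 minus Psmd6 was 1.62, 1.91 and 1.66 on the log2 scale with midkine and 0.83, 0.77 and 0.59 in controls. That ratio, chosen after its values were seen, was separated between groups by 1.00, and no scaling between libraries enters it.

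Psmd13, also of the lid, measured 859.8, 896 and 869 normalised read counts with midkine and 930.3, 1121 and 1009 in controls, without overlap (log2 fold change -0.22, limma adjusted p = 0.0361). Its call was lost without midkine replicate 1 (-0.20), midkine replicate 3 (-0.21), control replicate 2 (-0.15) or control replicate 3 (-0.22), and its exons overlap Sirt3 on the other strand. The remaining 8 non-ATPase subunits were not called. Psmd14, the deubiquitinase of the particle, was at 282 ± 31.0 with midkine and 335 ± 21.5 in controls (log2 fold change -0.25), and was called without midkine replicate 1 (-0.32) or control replicate 1 (-0.30). Psmd4, a ubiquitin receptor, was at 1254 ± 18.8 with midkine and 1309 ± 140.3 in controls. Psmd1 (0.07) and Psmd2 (0.09), the large scaffold subunits of the base, had log2 fold changes that were -0.19 and -0.17 scaled to total counts, not called in either. Psmd3 was at -0.20, and at -0.29 and called without midkine replicate 3. Psmd12 was at -0.16, Psmd7 at 0.06 (-0.20 scaled to total counts) and Psmd11 at 0.0001 (-0.26 scaled to total counts).

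Of the 6 ATPases, which form the ring that unfolds the substrate, 3 fell and 1 rose. The shares over all genes were 21.8% lower and 20.9% higher. Psmc2 measured 294, 219.9 and 289 normalised read counts with midkine, against 362, 347 and 365 in controls. Psmc5 measured 293, 241 and 249 with midkine, against 320.2, 346 and 362 in controls. Both were separated between groups and lower in all 18 other fits, at -0.43 (SE 0.11, limma adjusted p = 0.00232) and -0.39 (SE 0.10, limma adjusted p = 0.00304). Psmc3 measured 966, 882 and 967 with midkine and 1066, 1183 and 1159 in controls (-0.28, SE 0.08, limma adjusted p = 0.0067). Its exons overlap Slc39a13 on the other strand. Psmc6 measured 614, 638 and 667 with midkine and 569, 523 and 532 in controls, which is higher without overlap (0.24, SE 0.08, limma adjusted p = 0.0231), or -0.02 and not called scaled to total counts. The call of Psmc6 was lost without midkine replicate 3 (0.21), control replicate 2 (0.22) or control replicate 3 (0.23). Psmc4 (-0.19) and Psmc1 (-0.11) were not called; without control replicate 1, the lowest control for Psmc1 at 1503 against 2063 and 2024, Psmc1 was at -0.26 and called.

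**Figure D4:**
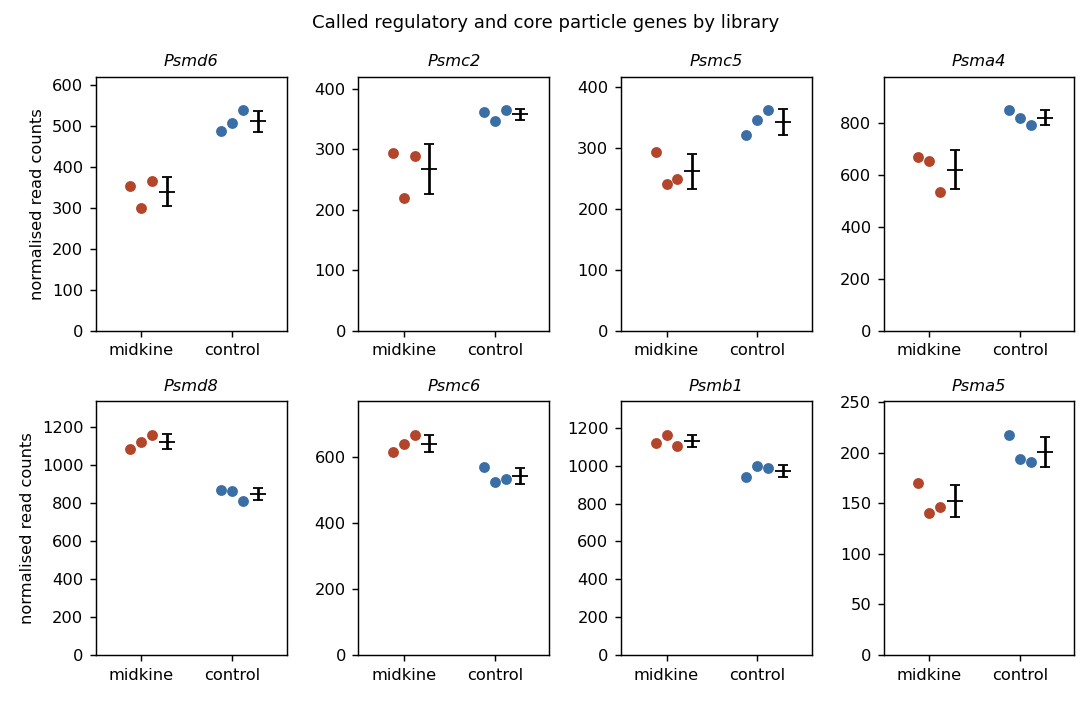
Normalised read counts per library of 8 called genes of the regulatory particle (Psmd6, Psmc2, Psmc5, Psmd8, Psmc6) and the core particle (Psma4, Psmb1, Psma5), midkine left of control, with the mean and SD (n = 3). The 2 groups do not overlap in any panel. Psmd8, Psmc6 and Psmb1 are higher with midkine under the deposited scaling. Scaled to total counts Psmc6 and Psmb1 turn to just under 0 and Psmd8 stays above it, and none of them is called.

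The core particle against regulatory particle comparison gave no separation of the groups. In the core 7 of 17 tested subunits were lower and 1 higher, at a median log2 fold change of -0.20. In the regulatory particle 5 of 17 were lower and 2 higher, at a median of -0.16. Over all genes tested 21.8% were lower and 20.9% higher, at a median of -0.01. The mean log2 value of the core minus that of the regulatory particle was 0.01, -0.06 and -0.05 in midkine libraries and 0.14, -0.02 and -0.02 in control libraries. The groups overlapped, and their means of -0.03 ± 0.04 and 0.03 ± 0.09 (SD, n = 3 each) differed by -0.06, less than the spread between control libraries. Without control replicate 1, which had the highest value, the difference was -0.013.

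Of the 7 assembly chaperones 1 was called, where 42.7% of all genes were called either way. Psmd9, a chaperone of the base of the regulatory particle, measured 71.0, 117 and 87.8 normalised read counts with midkine, against 122, 136 and 114 in controls. It was called lower with overlapping groups (log2 fold change -0.45, SE 0.16, limma adjusted p = 0.0243), and not without midkine replicate 1 (-0.28), midkine replicate 3 (-0.43) or control replicate 2 (-0.38). Psmd10, which encodes gankyrin, a chaperone of the same base and a known oncoprotein, measured 197, 214 and 234 with midkine and 167, 190.3 and 184 in controls, with no overlap and no call (0.25, or -0.0072 scaled to total counts). Psmd5 was at 88.2 ± 9.13 with midkine and 89.0 ± 15.9 in controls. The chaperones of the core, Psmg1 (-0.23), Psmg2 (0.06, or -0.20 scaled to total counts), Psmg3 (-0.19) and Psmg4 (-0.16), were not called.

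Partners of the proteasome outside the rule were mixed. Of 10 measured cofactors 2 fell and 1 rose, at a median of -0.06, where 21.8% of all genes fell and 20.9% rose. Pomp, the maturation factor of the core, was at 2208 ± 185 with midkine and 2884 ± 426 in controls (log2 fold change -0.38, limma adjusted p = 0.00163). Uchl5, a deubiquitinase of the regulatory particle, was at 217 ± 14.3 with midkine and 307 ± 19.2 in controls (-0.50, limma adjusted p = 0.000322). Akirin2, which brings proteasomes into the nucleus, rose by 0.28 (limma adjusted p = 0.041), or 0.02 and not called scaled to total counts. The ubiquitin and shuttle list of 17 measured genes had 5 higher and 1 lower, at a median of 0.19. Scaled to total counts it had 0 higher and 6 lower, where 10.8% of all genes were higher and 40.7% lower. Faf1, a cofactor of the segregase VCP, was highest at 0.50 (205 ± 14.5 with midkine, 144 ± 4.58 in controls; 0.25 and not called scaled to total counts). The ubiquitin-ribosomal fusion gene Rps27a (0.28) and the activating enzyme gene Uba1 (0.27) rose, while the polyubiquitin gene Ubb fell (-0.28); scaled to total counts Rps27a was at 0.02 and Uba1 at 0.01, neither called.

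The NRF1 pathway raises transcription of proteasome genes when proteasome activity is short, and several of the genes listed around it rose. Of 10 measured, 6 rose and none fell, at a median of 0.32, where 20.9% of all genes rose and 21.8% fell. Scaled to total counts 4 rose and 3 fell, where 10.8% of all genes rose and 40.7% fell. The list was not split by whether a gene raises or lowers that transcription. Nfe2l1, which encodes NRF1, was at 979 ± 47.4 normalised read counts with midkine and 494 ± 35.3 in controls (log2 fold change 0.99, SE 0.08, limma adjusted p = 6.3e-10). Nfe2l2, which encodes the related NRF2, was at 840.1 ± 36.2 with midkine and 475 ± 72.0 in controls (0.83, SE 0.10, limma adjusted p = 1.4e-07). Their partners Maff (1.08) and Mafg (0.61) rose as well. Scaled to total counts these 4 stayed higher, with Nfe2l1 at 0.73, Nfe2l2 at 0.57, Maff at 0.83 and Mafg at 0.35. Ddi2 (0.07), the protease that activates NRF1, and Ngly1 (-0.40), which removes its sugars, were not called. Neither were a further Maf gene, Mafk (-0.35), and Syvn1 (-0.18). Scaled to total counts Ngly1 (-0.65), Mafk (-0.60) and Syvn1 (-0.43) were called lower. Sel1l (0.29) and Bach1 (0.36) also rose and were at 0.03 and 0.10 scaled to total counts. Of the 5 members with the antioxidant letters before their start, Psmb5 and Psmd9 were lower, Psmc6 was higher (-0.02 scaled to total counts), and Psmb6 and Psmd12 were not called.

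Of 15 measured genes that control the immunoproteasome or load its peptides, 7 fell, 2 rose and 6 were not called, at a median of -0.19. The shares over all genes were 21.8% lower and 20.9% higher. Tapbpl, an editor of class I peptides, fell by 0.61 on the log2 scale (117 ± 4.94 normalised read counts with midkine, 179 ± 11.2 in controls; limma adjusted p = 0.000216) and Tapbp, a peptide loading chaperone, by 0.29. Tap1, the peptide transporter gene that neighbours Psmb9, was at 1648 ± 43.8 with midkine and 1919.8 ± 69.2 in controls (-0.22, limma adjusted p = 0.0179). Nlrc5, a class I transactivator, fell by 0.67, whereas Irf1, an activator of Psmb9, was at 471 ± 42.5 with midkine and 456 ± 70.2 in controls and was not called. Ifngr2 (0.56) and Calr (0.48) rose, also scaled to total counts (0.30 and 0.22). Beside the fall of Nlrc5 stand the values given above: Psmb10 and Psme1 lower, Psmb8 (lower scaled to total counts) and Psmb9 not called.

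Peptidases that trim or destroy proteasome products were at a median of -0.04, with 2 of 11 lower and 2 higher. The shares over all genes were 21.8% lower and 20.9% higher. Rnpep, the aminopeptidase B gene, was at 194 ± 17.5 normalised read counts with midkine and 459 ± 42.9 in controls (log2 fold change -1.24, SE 0.10, limma adjusted p = 4.4e-10). Dpp3 fell by 0.35, and Npepps, the puromycin-sensitive aminopeptidase gene, rose by 0.52, as did Lta4h by 0.32; scaled to total counts Npepps was at 0.26 and Lta4h at 0.06, neither called. Tpp2, the large peptidase downstream of the proteasome, was at 319 ± 10.7 with midkine and 328 ± 8.41 in controls (-0.04) and was not called.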

How the data were processed

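Per the labels, 3' end libraries (QuantSeq forward kit) were made from 500 ng of total RNA and sequenced on an Illumina HiSeq. Alignment tools named in the submitters' processing notes are Bowtie 1.0.0 and TopHat2 2.0.10; HTSeq, DESeq2 and SAMtools 0.1.19 are named as well, with the builds GRCm38 and mm10. Neither the gene annotation nor the strand setting is given in the sources used here. The authors deposited 1 table of signal values, each library's counts divided by its own size factor. All values (100%) were whole multiples of the value of 1 read within 1e-06 reads, so reads were recovered; for midkine replicate 3 the step is near 1, yet just 1.63% of the column is whole to 0.001. A 3' tag count is not divided by gene length. Ratios and read shares of different genes are given within a library, to be compared between the groups. No molecular identifiers are named, so intervals cover counting error only.

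Genes with a mean of at least 10 (11844 of 14912) were tested with limma 3.58.1 (R 4.3.3, variance trend) on log2(value + 1), with Benjamini-Hochberg adjustment over all of them; such fold changes understate those of low genes. Alternatives were pseudocounts of 0.5 and 5, no filter or a mean of 50, TMM, quantile and total-count scaling, no variance trend, edgeR 4.0.16, DESeq2 1.42.0, a replicate block, a threshold of 0.1 and leaving out each library. edgeR called 18 members and DESeq2 14, all of them called by limma in the same direction. Ratios within a library and list counts have no test. Members and lists were chosen with earlier results of these data known. Values in every library are given for Psmb5 to Psmb10, Psme1, Psme2 and called members (up to 4 per role), and the members of a list named are up to 4 called genes with the smallest p and others chosen after their values were seen. Positions are from GENCODE vM21. The last 200 bases of each transcript were compared with all transcripts (BLAST, at least 95% identity over 100 bases): 9 members have a copy elsewhere (Psma4, Psma5, Psmb1, Psmb3, Psmb5, Psmd2, Psmd11, Psme1 and Psme2), between which reads could be split. Identity between the proteins was not analysed here. The list counts include genes that are not reported here by name.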

Additional observations from a re-analysis of the deposited data

How the results depend on the processing

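Of 873 recomputed values of single members, 763 kept direction and side of the threshold. With the sign kept, 37 lost a call and 37 gained a call. The other 36 changed sign, whether or not a call changed. Among these 36, Psmb1 and Psmc6 scaled to total counts also lost their calls. The 9 members called the same way in all 18 other fits were Psma4, Psma5, Psmb5, Psmb10, Psmc2, Psmc5, Psmd6, Psme1 and Psme3, all lower. Depth limits the low members, such as Psma8 and Psmg1, most. The causes of the changes below were not tested, apart from the shift of the median by total-count scaling.

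Scaled to total counts, all genes gave 1283 higher and 4817 lower, members 0 higher and 31 lower, the core 0 and 14, and the regulatory particle 0 and 11. In the same setting cofactors gave 0 higher and 6 lower, NRF1 pathway genes 3 lower, ubiquitin genes 0 higher and 6 lower, and peptidases 0 higher and 5 lower. Leaving ribosomal RNA out of the totals gave 1 member higher, 0 in the core and 1 in the regulatory particle, and 2023 of all genes higher. Without a variance trend 1 member was higher (0 core, 1 regulatory) and 9 lower (4 core, 3 regulatory). Leaving out a library gave 1 to 3 members higher, 0 to 1 in the core and 1 to 2 in the regulatory particle; the member count was 1 without midkine replicate 3 or control replicate 3. The immunoproteasome difference became -0.14, -0.12 and 0.13 without the pairs of Psmb8, Psmb9 and Psmb10.

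Signs changed with total-count scaling for Psma1 (-0.24), Psmb1 (-0.043), Psmb9 (-0.20), Psmc6 (-0.017), Psmd1 (-0.19), Psmd2 (-0.17), Psmd7 (-0.20), Psmd10 (-0.0072), Psmd11 (-0.26), Psme4 (-0.13) and Psmg2 (-0.20), and without ribosomal RNA for Psma1 (-0.057), Psmb9 (-0.015), Psmd1 (-0.013), Psmd7 (-0.015), Psmd11 (-0.078) and Psmg2 (-0.021). With TMM, Psmd5 was at 0.0003. Over left-out libraries Psma1 ranged from -0.038 to 0.12, Psmb6 from -0.088 to 0.0015, Psmd1 from -0.0008 to 0.14, Psmd4 from -0.12 to 0.026, Psmd5 from -0.16 to 0.095, Psmd7 from -0.036 to 0.12, Psmd11 from -0.066 to 0.045, Psmf1 from -0.16 to 0.039 and Psmg2 from -0.077 to 0.17.

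No pairing by replicate number was seen: deviations of same-numbered libraries correlated at -0.0097, 0.03 and -0.06. With 3 libraries a group, a shared source of small effect could go unseen. A replicate block gave 3 members higher and 18 lower, adding Psmb8, Psmd14 and Psme2. The planned comparison of protein sequences was not run.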
